A study of Mus musculus with 10 samples.

Results

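The genes described here are 8 genes of type 2 immunity, taken from the count table of mouse colon RNA by their gene symbol: the cytokines Il4, Il5 and Il13, the receptor genes Il4ra, Il13ra1 and Il5ra, the transcription factor gene Gata3 and the chemokine receptor gene Ccr3. All 8 were found among the 29320 genes of the table. Of the 8, Il4, Il5, Il13 and Ccr3 were near zero, with a mean under 10 read counts per library, and the other 4 passed the filter on low counts and were tested.

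The study sequenced colon RNA from WT mice (C57BL/6, labelled B6 in the count table) and mice lacking ERdj5, an endoplasmic reticulum protein encoded by Dnajc10, to see how colitis differs without it. The groups were untreated WT (2 libraries), DSS-treated WT (3 libraries), untreated ERdj5-KO (2 libraries) and DSS-treated ERdj5-KO (3 libraries). All mice were 8-week-old females, DSS-treated mice drank 2% dextran sulfate sodium for 5 days, and every colon was taken on Day 5. The ERdj5 deletion was present in the whole body. The WT and KO mice came from different suppliers, and the study states that mice were bred at its own animal facility. The replicates are mice by the study's description. That description gives every group the same number of mice, whereas the untreated groups analysed here hold fewer libraries than the DSS-treated ones, and no label ties a library to a mouse, so p-values measure the spread between these libraries. Libraries are called by the numbers in the count table: untreated WT 2 and 3, DSS-treated WT 2, 3 and 4, untreated KO 2 and 3, and DSS-treated KO 1, 2 and 4.

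IL-4, IL-5 and IL-13 are the signature cytokines of type 2 immunity, made mainly by Th2 cells and group 2 innate lymphoid cells under the control of the transcription factor GATA3. IL-4 and IL-13 signal through the IL-4 receptor alpha chain and STAT6, IL-13 needs the IL-13 receptor alpha 1 chain as the partner, and in the gut they act on epithelium, goblet cells and macrophages. IL-5 signals through its own alpha chain, which is best known from eosinophils, and CCR3 is the receptor by which eosinophils follow eotaxins.

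The libraries held 49689389 to 72197887 counted reads, so 3 counts, the limit set for an observed 0, corresponded to 0.0412 to 0.0631 CPM (counts per 1000000 reads of the library, with the library size adjusted by TMM factors). These limits cover counting error only. Dnajc10 was at 113 to 140 CPM in the WT libraries and at 18.4 to 30.4 CPM in the KO libraries. All 10 colon epithelium markers were detected, with a summed level of 12532 to 18888 CPM over the libraries. The summed level of 10 smooth muscle genes was 3122 to 4805 CPM in untreated WT, 2687 to 4887 CPM in DSS-treated WT, 9164 to 10838 CPM in untreated KO and 602 to 992 CPM in DSS-treated KO libraries. That of 15 T cell genes was 201 to 295, 80.6 to 129, 31.8 to 39.1 and 29.7 to 59.1 CPM in the same order, and that of 7 neutrophil genes was 152 to 180, 230 to 335, 317 to 352 and 378 to 924 CPM. The part of these shifts in the results below was not tested, and in bulk RNA fewer cells of a type and less RNA per cell cannot be told apart.

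The 3 cytokines themselves were near zero in every group. Il4 (gene ID 16189, chromosome 11 of GRCm38.p6, 53612460 to 53618665) had 2 counts in all, both in DSS-treated KO library 1. Il13 (gene ID 16163, chromosome 11, 53631323 to 53634702) had 8 counts, all in untreated KO library 3. Il5 (gene ID 16191, chromosome 11, 53720794 to 53725103) had 3 counts in untreated WT library 2, 10 in untreated KO library 3 and 3 in DSS-treated KO library 1. The remaining libraries held no read of these genes, so each gave at most the limit of 3 counts there. Untreated KO library 3 was the library with most of the Il5 and Il13 reads, and its partner, untreated KO library 2, had none.

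Ccr3 (gene ID 12771, chromosome 9, 124017825 to 124031692), the eotaxin receptor, was as rare. It had 6 counts in untreated WT library 2, 5 and 3 in DSS-treated WT libraries 3 and 4, and 5 in DSS-treated KO library 2, and none in the other 6 libraries. For these 4 genes the groups overlapped wherever any read was found in both, no fold change is given, and a difference between groups was not detectable at this depth. The filter on low counts left them out of the test. With no filter, edgeR called none of the 4 in any comparison (lowest adjusted p = 0.225), and 0 had an unadjusted p under 0.05.

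**Figure D1:**
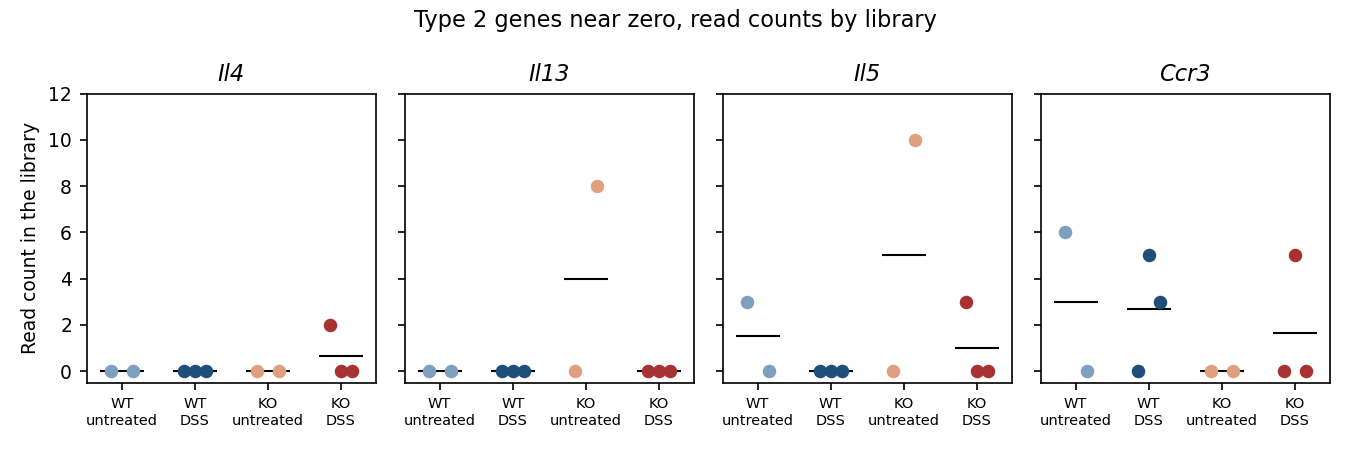
Read counts of Il4, Il13, Il5 and Ccr3 (vertical axis, linear) in each library of the 4 groups (horizontal axis), with 1 point per library and a line at the group mean. No library exceeded 10 counts, and Il13 was seen only in 1 untreated KO library.

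The receptors and Gata3 carried reads in every library. In colitis, Il4ra, Il5ra and Gata3 were higher in ERdj5-KO than in WT colon, and Il13ra1 was not called. Of the 4 genes tested, 3 were thus called higher in KO mice under DSS, a call being an adjusted p under 0.05 from the quasi-likelihood test of edgeR, corrected over all 20472 tested genes by the method of Benjamini and Hochberg. Of all tested genes 14.9% were called higher and 14.9% lower. The genotypes did not overlap in any of the 3 genes, as was the case for 20.6% of all genes in that direction. In untreated mice the order was the opposite, with 2 of the 4, Il4ra and Gata3, called lower in KO than in WT mice, against 5.97% of all genes. Both untreated KO libraries lay below both untreated WT libraries for all 4, as they did for 32.1% of all genes.

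To show the genes beside their values, the RefSeq sequence upstream of the annotated start is given for Il5ra and Il4ra, which were called higher in the KO colitis libraries, and for Il13ra1, which was not. The strand is that of the gene and the sequence runs 5′ to 3′. Capitals mark the letters GATA, the core bound by GATA factors, on either strand (TATC where it lies on the other strand). Bases that overlap an exon of GENCODE M21 were left out, so the Il4ra stretch is 99 bases long and the Gata3 window, which lies wholly within such exons, is not shown.
Il5ra (GRCm38.p6, chr6:106749038-106749287, minus strand): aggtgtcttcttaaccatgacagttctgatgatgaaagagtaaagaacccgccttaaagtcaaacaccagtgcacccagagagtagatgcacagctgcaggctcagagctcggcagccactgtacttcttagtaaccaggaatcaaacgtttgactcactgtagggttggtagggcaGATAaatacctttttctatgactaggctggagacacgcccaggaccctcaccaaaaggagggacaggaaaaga
Il4ra (GRCm38.p6, chr7:125552021-125552119, plus strand): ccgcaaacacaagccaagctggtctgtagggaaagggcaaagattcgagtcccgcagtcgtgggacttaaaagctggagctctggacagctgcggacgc
Il13ra1 (GRCm38.p6, chrX:36111858-36112107, plus strand): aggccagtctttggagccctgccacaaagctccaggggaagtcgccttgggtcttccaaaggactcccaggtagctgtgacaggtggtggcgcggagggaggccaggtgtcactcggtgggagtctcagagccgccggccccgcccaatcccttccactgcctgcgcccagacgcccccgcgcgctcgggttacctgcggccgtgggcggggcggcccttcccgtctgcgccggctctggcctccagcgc
The 250-base window of Il5ra held GATA at 1 place and those of Il4ra, Il13ra1 and Gata3 at none. Of all 32851 windows of this length in the RefSeq table, 53.6% held these letters on either strand. The 10-letter pattern TTCNNNNGAA, which is read the same on both strands and is bound by STAT6 among others, was in none of the windows of Il5ra, Il4ra, Il13ra1 and Gata3 and in 5.85% of all windows. The GC content of the windows was 48% for Il5ra, 59.6% for Il4ra, 70% for Gata3 and 70.8% for Il13ra1. A match or its lack describes these letters in these windows and says nothing of binding.

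Il4ra (gene ID 16190, chromosome 7, 125552271 to 125579474), the chain shared by the receptors for IL-4 and IL-13, was at 50.3 and 42.4 CPM in the untreated WT libraries and at 47.5, 52.5 and 60.1 CPM in WT libraries after DSS. In KO mice it was at 22.0 and 23.1 CPM without treatment and at 95.9, 86.1 and 108 CPM with DSS. The untreated KO libraries were thus the lowest and the DSS-treated KO libraries the highest, with no overlap between the genotypes in either state. Under DSS the genotypes differed by 0.86 on the log2 scale (SE 0.12, n = 3 per group, adjusted p = 0.00158 with edgeR). In untreated mice the difference, KO against WT, was -1.04 (SE 0.15, n = 2 per group, adjusted p = 0.00545 with edgeR). The untreated call was lost without untreated KO library 2 (adjusted p = 0.0529 with edgeR), the highest value over all alternatives, which ranged down to 3.89e-07.

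Il13ra1 (gene ID 16164, chromosome X, 36112108 to 36171262), the partner chain for IL-13, was not called between the genotypes in either state. It was at 148 and 150 CPM in untreated WT, 156, 157 and 180 CPM in DSS-treated WT, 117 and 117 CPM in untreated KO and 135, 152 and 226 CPM in DSS-treated KO libraries. The DSS-treated groups overlapped, with a spread in KO mice that enclosed all 3 WT libraries. The log2 fold change in DSS-treated mice was 0.06 (SE 0.17, 95% confidence interval -0.33 to 0.44, n = 3 per group, adjusted p = 0.829 with edgeR), and without DSS-treated KO library 4 it turned to -0.20 (adjusted p = 0.176 with edgeR). Both untreated KO libraries lay below both untreated WT libraries, but the difference of -0.35 on the log2 scale (SE 0.21, 95% confidence interval -0.82 to 0.12, n = 2 per group) was not called (adjusted p = 0.318 with edgeR). A fit of only these 2 groups called it (edgeR adjusted p = 0.0344), and adjusted p ranged from 0.0344 to 0.562 over all alternatives.

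Since both chains take part in the same receptor, their levels were compared per length, as CPM per kilobase of annotated exon. This ratio was chosen after the values of both genes were known. Il13ra1 was the more abundant in every library. The ratio of Il4ra to Il13ra1 per kilobase was 0.211 and 0.175 in untreated WT, 0.189, 0.207 and 0.206 in DSS-treated WT, 0.116 and 0.123 for untreated KO and 0.440, 0.350 and 0.297 in DSS-treated KO libraries. All 3 DSS-treated KO libraries lay above all WT libraries, and both untreated KO libraries lay below them. Under DSS the ratio was 1.79 times as high in KO as in WT mice (exact two-sided permutation test, p = 0.1, the smallest that 3 against 3 libraries allow). In untreated mice it was 0.622 of the WT ratio (exact two-sided permutation test, p = 0.333, the smallest that 2 against 2 allow).

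**Figure D2:**
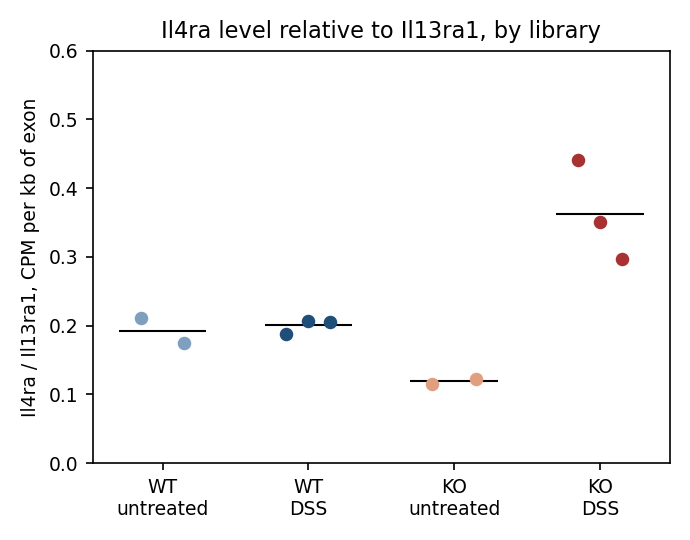
Ratio of Il4ra to Il13ra1, each in CPM per kilobase of exon (vertical axis, linear from 0) in each library of the 4 groups, with 1 point per library and a line at the group mean. DSS-treated KO libraries sit between 0.297 and 0.440, and untreated KO libraries at 0.116 and 0.123.

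Il5ra (gene ID 16192, chromosome 6, 106710375 to 106749037), the alpha chain of the IL-5 receptor, showed the widest range of the 4. It had 75 and 34 counts in untreated WT, 42, 29 and 83 in DSS-treated WT, 8 and 3 counts in untreated KO and 1130, 273 and 295 in DSS-treated KO libraries. In CPM these were 1.21 and 0.559, 0.666, 0.436 and 1.14, 0.158 and 0.0429, and 16.4, 4.57 and 6.21. Every DSS-treated KO library lay above every other library, and DSS-treated KO library 1 stood above its group. Under DSS, KO mice exceeded WT mice by 3.59 on the log2 scale (SE 0.61, n = 3 per group, adjusted p = 0.00322 with edgeR). It was 2.84 without DSS-treated KO library 1 (adjusted p = 0.00575 with edgeR), and over all alternatives adjusted p ranged from 4.49e-09 to 0.0174. The same library had the highest summed neutrophil level, 924 CPM against 378 and 505 CPM in the other DSS-treated KO libraries.

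In untreated mice Il5ra had a value of -3.20 for KO against WT on the log2 scale (SE 0.89, n = 2 per group), which missed the threshold (adjusted p = 0.0514 with edgeR), although the groups did not overlap. The value was -4.30 without untreated KO library 2 and -2.47 without untreated KO library 3. The same edgeR test called it without DSS-treated KO library 1 (adjusted p = 0.0222), 2 (0.0493) or 4 (0.0497), with no filter on low counts (0.0462) and in a fit of only these 2 groups (0.0357). DESeq2 called it too (adjusted p = 0.00124), and the range over all alternatives was 0.00124 to 0.271. Il5ra had too few reads in untreated KO mice, 11 over both libraries, to pass a filter of 10 counts in every library.

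Gata3 (gene ID 14462, chromosome 2, 9857078 to 9887953), the transcription factor of Th2 cells and group 2 innate lymphoid cells, was at a low level throughout. It was at 1.67 and 1.20 CPM in untreated WT, 0.682, 0.706 and 0.742 CPM in DSS-treated WT, 0.336 and 0.315 CPM in untreated KO and 2.12, 2.53 and 2.92 CPM in DSS-treated KO libraries, from 17 to 151 counts per library. None of the 4 groups overlapped another. The log2 fold change between the genotypes under DSS was 1.82 (SE 0.24, n = 3 per group, adjusted p = 0.00132 with edgeR), and that of the untreated groups was -2.14 (SE 0.31, n = 2 per group, adjusted p = 0.00573 with edgeR). The untreated call was lost without untreated KO library 3 (adjusted p = 0.0551 with edgeR), the highest value over the alternatives, which ranged down to 3.33e-06. Of the 15 T cell genes, 14 were called lower in untreated KO mice, against 5.97% of all genes (list median -3.39 beside 0.01 over all genes). The count was 9 when untreated KO library 3 was left out. Under DSS 12 were called lower in KO mice, against 14.9% of all genes (list median -1.12 beside -0.04). The count was 4 without DSS-treated WT library 3 or 4 and 6 without DSS-treated KO library 4. In the interaction 13 were called higher, against 13.8% of all genes (list median 2.23 beside 0.01), and 5 without untreated WT library 2 or untreated KO library 3. The T cell genes thus had the direction of Gata3 without treatment and in the interaction, and the opposite one under DSS, and their part in its levels was not tested.

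**Figure D3:**
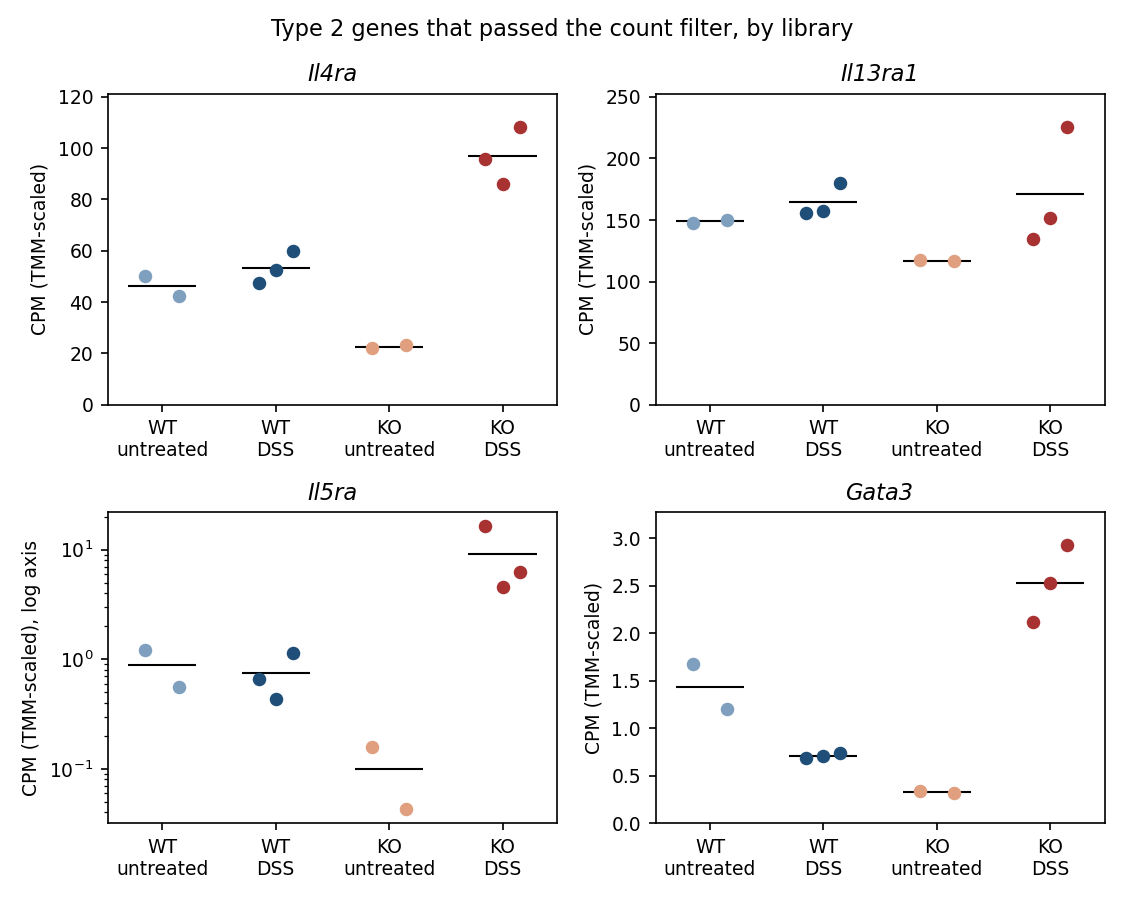
Levels of Il4ra, Il13ra1, Il5ra and Gata3 in CPM (vertical axes, linear from 0 except for Il5ra, which has a log axis) in each library of the 4 groups, with 1 point per library and a line at the group mean. DSS-treated KO libraries are the highest for Il4ra (86.1 to 108 CPM), Il5ra (4.57 to 16.4 CPM) and Gata3 (2.12 to 2.92 CPM), and untreated KO libraries the lowest.

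How each gene answered to DSS was asked within each genotype. In WT mice none of the 4 genes was called by edgeR, where 0.0244% of all genes were called in either direction. At an unadjusted p under 0.05 there was 1, Gata3, at -1.01 on the log2 scale (SE 0.26, adjusted p = 0.458 with edgeR), and DESeq2 called 0. The log2 fold changes of Il4ra, Il13ra1 and Il5ra in WT mice were 0.20 (95% confidence interval -0.10 to 0.51), 0.14 (-0.29 to 0.57) and -0.24 (-1.69 to 1.22), and the last was 0.42 without untreated WT library 2 and 0.04 without DSS-treated WT library 3.

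In KO mice all 4 tested genes rose with DSS, against 23.1% of all genes called higher. The DSS-treated KO libraries lay above the untreated ones for all 4, as for 31.6% of all genes. Il4ra was 4.29 times as high with DSS as without (log2 SE 0.15, adjusted p = 4.42e-05 with edgeR). The log2 fold change was 2.95 for Gata3 (SE 0.31, adjusted p = 0.000137) and 6.55 for Il5ra (SE 0.90, adjusted p = 0.000493), both with edgeR over 3 DSS-treated and 2 untreated KO libraries. For Il5ra it was 5.76 without DSS-treated KO library 1, 7.66 without untreated KO library 2 and 5.83 without untreated KO library 3. Il13ra1 rose by 0.55 (SE 0.19, adjusted p = 0.0427 with edgeR). That call was lost in a fit of only the KO groups (edgeR adjusted p = 0.144) and with RLE factors (0.0501). It was also lost without untreated WT library 2 (0.0615) or 3 (0.0616), with library 2 (0.0566) or 3 (0.0577) of DSS-treated WT left out, with either untreated KO library left out (0.147 and 0.157), or without DSS-treated KO library 4, where the log2 fold change was 0.29 (0.0586), and adjusted p ranged from 0.0137 to 0.157 over all alternatives.

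The difference between the DSS responses of KO and WT mice, tested as the interaction, was called higher for 3 of the 4, against 13.8% of all genes. It was 1.90 for Il4ra (SE 0.19, adjusted p = 0.00098), 3.96 for Gata3 (SE 0.40, adjusted p = 0.000892) and 6.79 for Il5ra (SE 1.07, adjusted p = 0.00304) on the log2 scale with edgeR. For Il5ra it was 6.01 when DSS-treated KO library 1 was left out, 6.13 when untreated WT library 2 was, and 6.06 and 7.89 when untreated KO library 3 and 2 were. Il13ra1 had an interaction of 0.41 (SE 0.27, 95% confidence interval -0.20 to 1.01, adjusted p = 0.292 with edgeR). The interaction and each comparison above share libraries with one another, so their values are not separate evidence.

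**Figure D4:**
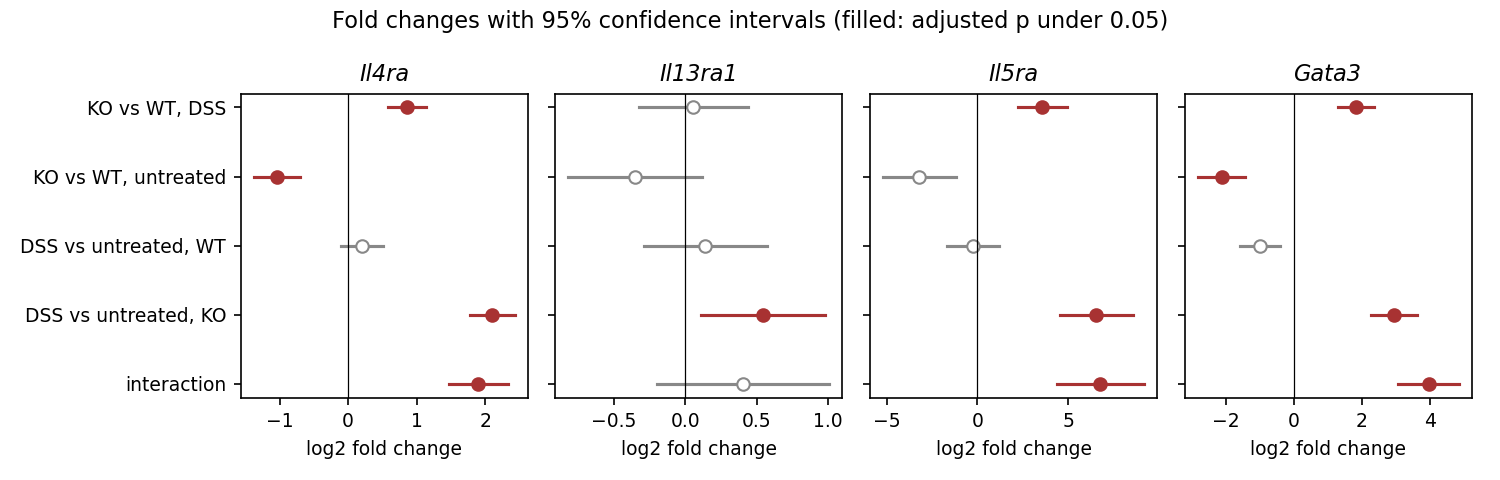
Log2 fold changes (points) with 95% confidence intervals (lines) of Il4ra, Il13ra1, Il5ra and Gata3 in the 4 comparisons and the interaction, each gene on its own horizontal scale, filled red where adjusted p was under 0.05. KO against WT is positive with DSS and negative without it for Il4ra, Il5ra and Gata3, and the untreated value of Il5ra is not called (edgeR adjusted p = 0.0514).

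The study's own thresholds, p under 0.01 and a fold over 3, were also applied to this fit. Il5ra and Gata3 passed them as higher in KO mice under DSS, as did 1.2% of all genes, and as lower in KO mice without treatment, as did 3.61% of all genes. Il4ra, with a 1.81-fold difference in colitis and a 2.06-fold difference without, passed in neither.

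Per kilobase of exon, the order of the 4 genes changed in 1 place. In every group Il13ra1 was first, with a mean of 31.5 to 46.0 CPM per kilobase, and Il4ra second, with 3.76 to 16.1. In untreated WT mice Gata3 followed with 0.361 ± 0.0840 and Il5ra with 0.247 ± 0.128 CPM per kilobase (SD, n = 2). In DSS-treated WT mice Il5ra, at 0.209 ± 0.100, and Gata3, at 0.179 ± 0.00752, differed by less than the spread of Il5ra (SD, n = 3). In DSS-treated KO mice Il5ra, at 4.59, 1.28 and 1.74 CPM per kilobase, stood above Gata3, at 0.533, 0.636 and 0.735, in every library. In untreated KO mice the order was again Gata3 (0.0845 and 0.0791) over Il5ra (0.0443 and 0.0120).

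Over the 10 libraries, the log2 CPM of Il4ra correlated with that of Il5ra (Pearson r = 0.943) and Gata3 (0.903), Il5ra with Gata3 (0.906), and Il13ra1 with Il4ra (0.719), Gata3 (0.595) and Il5ra (0.525). The points share the 4 groups and their differences. The genes most alike were sought among 12443 genes whose mean log2 CPM reached 1, without predicted genes and those with Gm, Rik or LOC symbols. For Il4ra they were Ttc13 (r = 0.993), Pold3 (0.982), a subunit of DNA polymerase delta, and Elovl5 (0.981), a fatty acid elongase. For Il5ra they were Gtf3c6 (0.988), Pfkfb1 (0.980) and Taf6l (0.979). For Gata3 they were Gmfg (0.970), Anapc7 (0.968) and Mpp1 (0.967), and for Il13ra1 Acbd3 (0.979), Ppm1h (0.964) and Ankrd50 (0.963). Ttc13 was at 40.5 to 42.0 CPM in untreated WT, 43.1 to 44.1 CPM in DSS-treated WT, 30.1 to 30.4 in untreated KO and 55.1 to 60.1 CPM in DSS-treated KO libraries, the order of Il4ra on a narrower range.

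Of 17 genes for type 2 receptor chains and STAT signalling, 3 were called higher in KO mice under DSS and 0 lower, near the share of all genes called higher (14.9%). They were Il5ra, Il4ra and Socs1, a feedback inhibitor of cytokine receptors (log2 fold change 2.26, SE 0.57, adjusted p = 0.0171 with edgeR). The median log2 fold change of the list was 0.06 beside -0.04 over all genes. Socs1 was no longer called when WT library 2 (edgeR adjusted p = 0.0539) or 3 (0.0668) of the DSS-treated group was left out. Stat6, which carries the IL-4 and IL-13 signal, was at 88.1 to 101 CPM in all 10 libraries (log2 fold change -0.02, SE 0.07, adjusted p = 0.883 with edgeR). Il13ra2, which encodes the decoy receptor for IL-13, was at 0.572 to 1.57 CPM in all libraries.

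In untreated mice 5 of these 17 genes were called lower in KO, where 5.97% of all genes were, among them Il2rg, the common gamma chain (log2 fold change -2.39, adjusted p = 0.0177 with edgeR), Csf2rb, the beta chain that IL-5 shares with IL-3 and GM-CSF (-1.70, adjusted p = 0.0406), and Jak3 (-1.36, adjusted p = 0.00679), and the list median was -0.42 beside 0.01 over all genes. With 1 library left out the count of 5 fell to 1 without untreated KO library 2 or 3, to 2 without untreated WT library 2 and to 3 without WT library 3 of either treatment. One gene was called higher, Irs2, an adaptor of the insulin and IL-4 receptors, at 20.5 to 23.0 CPM in WT and 43.9 to 47.0 CPM in KO libraries (log2 fold change 1.06, SE 0.21, adjusted p = 0.0148 with edgeR), and it was not called when any 1 of these 4 libraries was left out. Csf2rb and its near-identical copy Csf2rb2 may share reads, so their split is uncertain. Macrophages also carry these chains, and their summed markers were at 399 to 510 CPM in untreated WT and 192 to 202 CPM in untreated KO libraries, and their part was not tested.

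The alarmin axis, by which epithelial and stromal cells call on group 2 innate lymphoid cells and Th2 cells, was tested through 8 of 9 listed genes. Under DSS 3 were called higher in KO mice and 1 lower, against 14.9% of all genes in each direction, with a list median of 0.18 beside -0.04 over all genes. Il1rl1, the receptor for IL-33, was at 3.12 and 3.16 CPM in untreated WT, 2.09, 2.75 and 3.52 in DSS-treated WT, 0.475 and 0.558 CPM in untreated KO and 7.75, 10.4 and 14.1 CPM in DSS-treated KO libraries. It was thus highest in DSS-treated KO and lowest in untreated KO mice, as were Il4ra and Gata3, with a log2 fold change of 1.95 in DSS-treated mice (SE 0.26, adjusted p = 0.00141 with edgeR) and -2.59 in untreated mice (SE 0.35, adjusted p = 0.00424 with edgeR). Its ligand gene Il33 was at 41.8, 16.2 and 11.2 CPM in DSS-treated KO libraries and at most 6.84 CPM in the other 7, a log2 fold change of 2.46 in DSS-treated mice (SE 0.54, adjusted p = 0.00962 with edgeR). The gene called lower was Il1rap, the partner chain of the IL-33 receptor, at 8.00 to 8.52 CPM in WT and 5.81 to 6.31 CPM in KO libraries under DSS (log2 fold change -0.44, SE 0.13, adjusted p = 0.0293 with edgeR). It was no longer called without untreated WT library 3, any 1 of the DSS-treated WT libraries or DSS-treated KO library 2. Il25, the tuft cell alarmin, had 4 and 10 counts in the untreated KO libraries and none elsewhere. Tslp was at 0.479 to 1.02 CPM in all libraries.

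**Figure D5:**
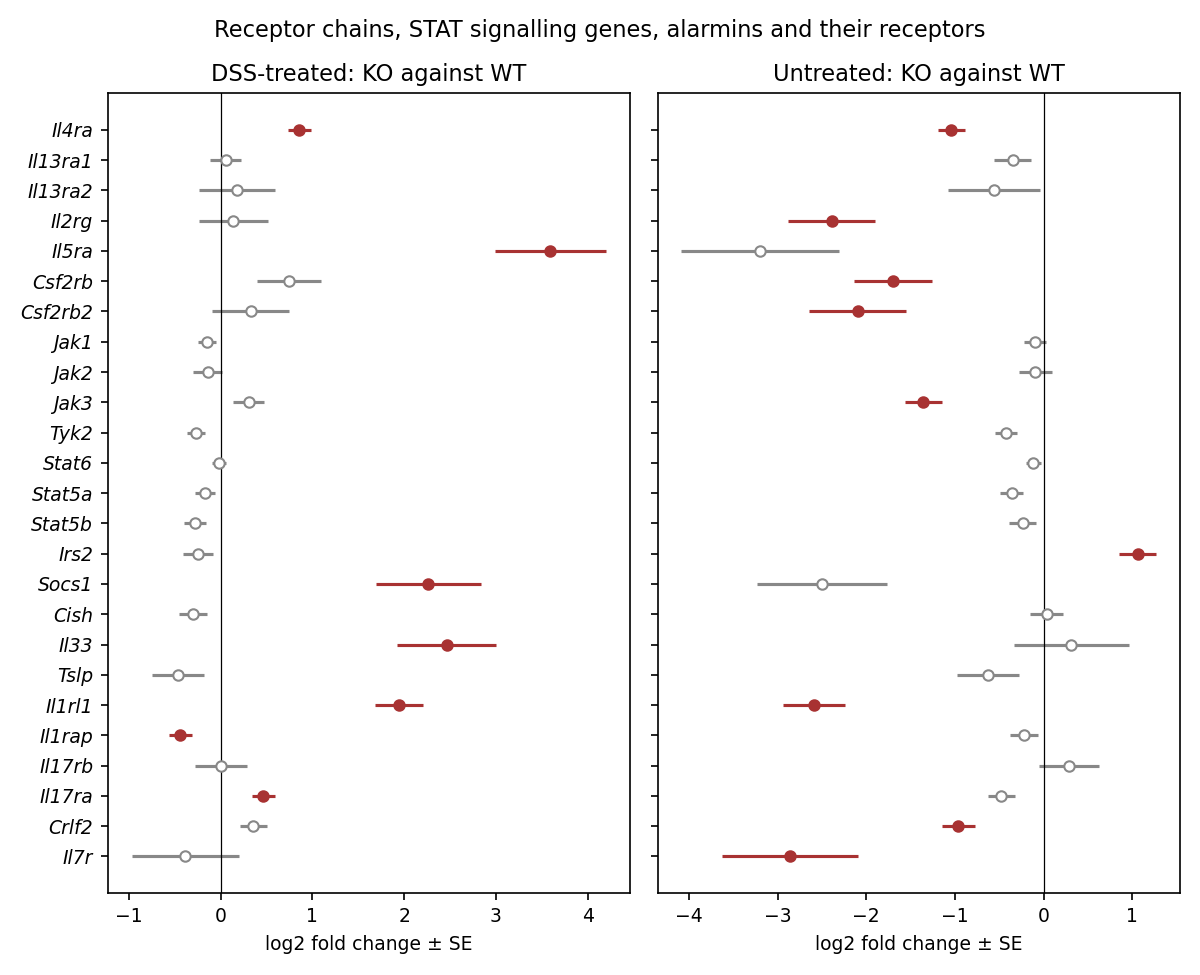
Log2 fold changes with standard errors (horizontal axis) of the receptor chain, STAT signalling, alarmin and alarmin receptor genes in DSS-treated (left) and untreated (right) KO against WT mice, filled red where adjusted p was under 0.05. Il1rl1, like Il4ra, is called in both panels and changes sign, 1.95 with DSS and -2.59 without, while Stat6 is at -0.02 and -0.11.

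Of 15 tested genes of Th2 cells and group 2 innate lymphoid cells, 2 were called higher in DSS-treated KO mice, Gata3 and Nfil3 (log2 fold change 1.79, SE 0.32, adjusted p = 0.00379 with edgeR), and 4 lower, against 14.9% of all genes in each direction, with a list median of -0.16 beside -0.04. Those lower were Rora, needed for group 2 innate lymphoid cells (-1.32, adjusted p = 0.0105 with edgeR), Hpgds, the prostaglandin D2 synthase (-1.26, adjusted p = 0.00281), Maf and Id2. Ptgdr2, the prostaglandin D2 receptor on Th2 cells, was near zero in every group. Maf was no longer called when WT library 3 or 4 or KO library 2 or 4 of the DSS-treated groups was left out. In untreated mice 5 of the 15 were called lower in KO and 0 higher, against 5.97% of all genes called lower. They were Icos (log2 fold change -4.49), Batf (-2.31), Gata3 (-2.14), Irf4 (-2.03) and Id2, with a list median of -0.91 beside 0.01. The count of 5 fell to 1 without untreated KO library 3 and to 2 without untreated KO library 2.

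Of the eosinophil list, 5 of 10 genes could be tested, 1 of which, Il5ra, was called higher in DSS-treated KO mice and 1, Alox15, lower (-1.64, adjusted p = 0.00683 with edgeR). Of all genes 14.9% were called in each direction, and the list median was -0.09 beside -0.04 over all genes. Siglecf, a surface marker of mouse eosinophils, was at 0.539, 0.631 and 0.618 CPM in WT libraries 2, 3 and 4 after DSS and at 0.755, 0.201 and 0.589 CPM in the DSS-treated KO libraries 1, 2 and 4. Prg2, a granule protein gene, was at 0.412, 0.210 and 0.467 CPM and at 0.653, 0.167 and 0.189 CPM in these libraries. Both overlapped between the groups (adjusted p = 0.755 for Siglecf and 0.921 for Prg2 with edgeR), whereas Il5ra did not. Prg3 and Ccr3 were near zero, and 3 of the listed genes were not analysed here. The eotaxin gene Ccl11 was lower in DSS-treated KO mice (log2 fold change -1.91, adjusted p = 0.0201 with edgeR), which was no longer called when DSS-treated WT library 3 (0.0809) or KO library 2 (0.0637) was left out.

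Among 18 genes that IL-4 and IL-13 induce, 3 were called higher and 3 lower in DSS-treated KO mice, against 14.9% of all genes in each direction, with a list median of 0.27 beside -0.04. Arg1, an enzyme of alternatively activated macrophages, rose (log2 fold change 3.55, SE 0.61, adjusted p = 0.00351 with edgeR), as did Tgm2, a transglutaminase (2.83-fold, adjusted p = 0.00249). Chil3 rose as well, but it was no longer called when WT library 2, 3 or 4 or KO library 1 of the DSS-treated groups was left out. Retnla, another gene of alternatively activated macrophages, was lower, at 0.851 to 1.02 CPM in WT and 0.189 to 0.316 CPM in KO libraries under DSS (log2 fold change -1.81, SE 0.46, adjusted p = 0.0167 with edgeR), a call lost without DSS-treated WT library 3 (0.0536) or KO library 1 (0.0502). Alox15 was the third gene called lower. Clca1, a goblet cell product, fell from 1364, 1256 and 1895 CPM to 218, 511 and 484 CPM (log2 fold change -1.90, SE 0.31, adjusted p = 0.00289 with edgeR). Retnlb, another goblet cell product, was at 100, 63.3 and 56.6 CPM in DSS-treated WT and at 64.3, 125 and 154 CPM in DSS-treated KO libraries, which overlap, and at 16.1 and 20.4 CPM in untreated WT and 1.27 and 1.99 CPM in untreated KO libraries, which do not (log2 fold change -3.47, SE 0.46, adjusted p = 0.0041 with edgeR). Among these 18 genes in untreated mice, 4 were called lower in KO, Retnlb among them, against 5.97% of all genes. The list median was -0.69 beside 0.01. Ang4 alone was called higher (log2 fold change 5.04), at 0 to 0.241 CPM in WT and 2.22 to 5.93 CPM in KO libraries. Its call was lost without any 1 of these libraries or DSS-treated KO library 2. The count of 4 fell to 1 without untreated KO library 2 or 3 or untreated WT library 2. Many of these genes answer to other signals as well, so the list does not measure IL-4 or IL-13.

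Of 9 tested genes of mast cells and basophils, 1 was called higher and 1 lower in DSS-treated KO mice, against 14.9% of all genes in each direction. The list median was -0.87 beside -0.04 over all genes, and 2 were called lower without DSS-treated KO library 1 or 2. Hdc, the histamine-forming enzyme, was higher (log2 fold change 3.55, SE 0.66, adjusted p = 0.0047 with edgeR) and Kit was lower (-1.17, SE 0.08, adjusted p = 9.13e-05), while 6 of the 13 listed genes in the table, Fcer1a and Ms4a2 of the IgE receptor among them, were near zero in all groups. Kit was at 30.8 to 31.9 CPM in DSS-treated WT and 13.4 to 14.4 CPM in DSS-treated KO libraries, whereas Cpa3 of the same list reached at most 0.345 CPM. Which cells carried Kit or Hdc was not tested. Of 8 tested neighbours of Il4, Il5 and Il13 on chromosome 11, none was called by edgeR between the genotypes under DSS with all libraries, 1 (Rad50) had an unadjusted p under 0.05, and DESeq2 called 0. Rad50, which lies between Il13 and Il5, was at 19.0 to 29.4 CPM in all libraries, while Il13 and Il5 had at most 10 counts in any library.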

How the data were processed

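Colon RNA was sequenced from poly(A)-selected stranded libraries. The read counts per gene were made by the authors, whose notes list StringTie 2.1.3b, HISAT2 2.1.0, Trimmomatic 0.38 and Bowtie2 2.3.4.1 with the mm10 build, and were deposited without normalization. The handling of multi-mapping reads and strand was not given in the sources used here. Columns with counts, 10 in all, were assigned to groups by their names, which do not match single samples. The 30 per-library columns of FPKM, TPM and normalized values were not used, nor were the authors' own fold changes and p-values for KO against WT mice, and levels between genes were compared as CPM per kilobase of the GENCODE M21 exon union, where TPM had been planned.

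Counts of the 20472 genes that passed filterByExpr (of 29320) were fitted in edgeR 4.0.16 (R 4.3.3, limma 3.58.1) with TMM factors and a mean for each of the 4 groups over all 10 libraries, and tested by quasi-likelihood. The scripts were tested on simulated data. Total counts were 49689389 to 72197887 per library. The limits for genes without reads cover counting error only. The confidence intervals of the fold changes come from the quasi-likelihood fit and include the spread between libraries. Alternatives were RLE factors, DESeq2 1.42.0, no filter, a minimum of 10 counts in every library, only the groups compared, a block on the library number and leaving out each library. The members and the 18 gene lists (193 genes, 186 in the table, the rest not analysed here) were chosen with earlier results of these data known. Named were all members, up to 4 called genes with the largest fold change per list and comparison, defining markers near zero and the 3 genes most correlated with each tested member. Genes outside this rule, such as Stat6, Tslp, Siglecf, Prg2 and Rad50, were named after their values were seen. Positions and upstream sequences are from RefSeq (GRCm38.p6), where all 8 members matched by gene ID. Near zero means a mean under 10 counts per library.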

Additional observations from a re-analysis of the deposited data

Results flagged for a closer look

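The response to DSS differed between KO and WT mice in the interaction test of edgeR for 3 of the 4 type 2 genes tested, where 13.8% of all genes were called higher: by 1.90 for Il4ra, 6.79 for Il5ra and 3.96 for Gata3 on the log2 scale, each KO minus WT. All 3 calls held with any single library left out.

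Other genes named here, taken from the lists, differed in the same test. Receptor and signalling genes were Il1rl1 (4.54), Crlf2, a chain of the TSLP receptor (1.32), Il17ra (0.94), Socs1 (4.76), Il2rg (2.53), Csf2rb (2.44) and Jak3 (1.66). Genes of Th2 cells and group 2 innate lymphoid cells were Icos, a costimulatory receptor (3.83), Nfil3 (2.12) and Hpgds (-2.09). Of 9 tested genes of mast cells and basophils, 4 were called higher, Mcpt1, Mcpt2, Cma1 and Hdc (5.54), against 13.8% of all genes. Kit (-1.36) was called lower. Mcpt1, Mcpt2 and Cma1 were also the 3 called lower in untreated KO mice, against 5.97% of all genes, with a list median of -2.40 beside 0.01. Without untreated KO library 3 the count of 4 fell to 3 and that of 3 to 2. Genes of other T cell types were Ifng (6.79), Tbx21 (3.85), Ctla4 (3.62) and Il10 (3.33), and chemokine genes were Ccl7 (4.96), Ccl5 (4.51) and Ccl8 (4.50). Genes induced by IL-4 and IL-13 were Chil3 (7.72), Retnlb (4.11), Arg1 (3.68), Tgm2 (1.20), Clca1 (-2.45) and Retnla (-2.72), and Kif3a, a neighbour of Il4, was at -0.70. In untreated KO libraries Chil3 and Ifng had 0 to 2 counts, Tbx21 4 to 5 and Il10 0 to 12. The size of the values of these genes is therefore uncertain.

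Several of these calls were lost when 1 library was left out, all by edgeR's adjusted p. Without untreated WT library 2 the value was 0.0655 for Il2rg, 0.0526 for Csf2rb, 0.0509 for Nfil3, 0.0704 for Ccl7, 0.0708 for Arg1, 0.069 for Retnla, 0.0565 for Kif3a, 0.0587 for Ctla4, 0.0689 for Il10 and 0.0668 for Tgm2. Without untreated KO library 3 it was 0.0729 for Il2rg, 0.0598 for Csf2rb, 0.0511 for Ccl7, 0.0557 for Chil3, 0.0947 for Arg1, 0.077 for Retnla, 0.066 for Kif3a, 0.0505 for Ctla4 and 0.0674 for Tgm2. Without untreated KO library 2 it was 0.0941 for Ccl7, 0.067 for Arg1, 0.0594 for Kif3a and 0.141 for Tgm2. Without untreated WT library 3 it was 0.0676 for Arg1, 0.0701 for Kif3a, 0.106 for Il10 and 0.139 for Tgm2. Without DSS-treated WT library 3 it was 0.0518 for Ccl7, 0.0673 for Il10 and 0.0519 for Tgm2, without DSS-treated KO library 1 it was 0.0583 for Il10 and 0.066 for Tgm2, and Il10 was also lost without DSS-treated WT library 2 (0.0622) or 4 (0.0532).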

How the results depend on the processing

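Of 311 repeats of the members' results under another setting, 289 kept direction and side of the threshold, 11 lost the call, 8 gained it and 3 turned direction. In untreated KO against WT mice the number of members called was 2, and it was 4 in a fit of only the groups compared and 1 to 3 with a library left out. With a library left out, the log2 fold change of Il13ra1 between genotypes under DSS ranged from -0.197 to 0.194, and that of Il5ra between DSS-treated and untreated WT mice from -0.699 to 0.423. The reported -0.236 turned direction without untreated WT library 2 (0.423) and without DSS-treated WT library 3 (0.036). The cause was not tested. The library numbers do not pair the samples by the labels, and same-numbered libraries had correlations of -0.137 to 0.095 in their deviations. With the number as a replicate block, Il5ra was also called in untreated mice (edgeR adjusted p = 0.00631, 3 members called), its log2 fold change under DSS was 2.51 between genotypes and 5.10 against untreated KO mice, its interaction was 5.69, and no other call on a member changed. Over all alternatives, the genes called in the whole table ranged from 3237 to 7209 between genotypes under DSS (6096 with the settings reported), 304 to 3819 without treatment (2016), 0 to 167 for DSS in WT (5), 5623 to 9875 for DSS in KO (9300) and 2824 to 6601 for the interaction (5482). Of 1287 repeats for 83 called results on list genes, 1123 stayed called, 164 were lost and 0 turned direction. Il5ra gives no value with at least 10 counts in every library. Dividing by the longest transcript instead of the exon union, a choice made after seeing the data, changed the ratio of Il13ra1 to Il4ra in DSS-treated WT from 5.00 to 4.38. Il4, Il5, Il13 and Ccr3 were left out by the filter on low counts and were called in no comparison without it.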

Other observations

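The chemokine genes Ccl5 and Ccl8, whose products attract T cells, monocytes and eosinophils, were lower in untreated KO colon. Ccl5 was at 59.3 and 59.4 CPM in the untreated WT libraries and at 1.29 and 1.35 CPM in the untreated KO libraries (log2 fold change -5.49, SE 0.73, adjusted p = 0.00424 with edgeR), and the groups did not overlap. Ccl8 was at 26.4 and 27.4 CPM in these WT libraries and at 0.692 and 1.26 CPM in these KO libraries (log2 fold change -4.76, SE 0.61, adjusted p = 0.00359 with edgeR). Of the 5 chemokine genes listed, these 2 were called lower there, against 5.97% of all genes, and Ccl7, Ccl11 and Ccl24 were not called. The list median was -3.88 beside 0.01 over all genes. Under DSS 1 was called lower, Ccl11, against 14.9% of all genes, and 0 higher, with a list median of -0.26 beside -0.04.

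Among 11 tested genes of Th1, Th17 and regulatory T cells, 6 were called lower in untreated KO mice, against 5.97% of all genes, and 3 when untreated KO library 3 was left out. Tbx21, the transcription factor gene of Th1 cells, was at 3.09 and 4.74 CPM in untreated WT and at 0.0715 and 0.0791 CPM in untreated KO libraries (log2 fold change -5.67, SE 0.54, adjusted p = 0.00129 with edgeR). It was lower under DSS too (log2 fold change -1.82, SE 0.36, adjusted p = 0.00584 with edgeR), whereas Gata3 was higher. Under DSS 3 of the 11 were called lower in KO mice and 1 higher, against 14.9% of all genes in each direction. The list median was 0.34 beside -0.04 over all genes. The gene called higher was Il17a, at 7 to 84 counts in DSS-treated KO libraries and 0 in all others. Its call was lost without DSS-treated KO library 1 or 2 or DSS-treated WT library 3. The summed T cell markers were also lower in untreated KO mice, and their part in these differences was not tested.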
